A study of Homo sapiens with 6 samples.

Results

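SAA1, SAA2, SERPINA1, SERPINA3 and LCN2 are 5 human genes of the acute phase response, described here in bladder carcinoma cells with and without GANAB knockdown. They were taken by gene symbol from the deposited tables, in which TPM, a level scaled for gene length and library total, was listed for 60233 genes and estimated read counts for 21503. All 5 genes had TPM values, 4 had counts and passed the filter on low counts, and LCN2 had no row of counts. The 5 genes were chosen by their function and by their measured differences between the knockdown and control libraries used here. Those differences are therefore given as a description, with no test.

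The acute phase response is the change in secreted proteins that follows infection, injury or inflammation. Its best known site is the liver, where IL-6 family cytokines acting through STAT3, together with IL-1 and TNF acting through NF-kappaB and C/EBP factors, raise the transcription of these genes. Epithelial and tumour cells can make several of the same proteins locally. SAA1 and SAA2 encode the serum amyloid A proteins, which travel on high-density lipoprotein. SERPINA1 encodes alpha-1-antitrypsin, an inhibitor of neutrophil elastase. SERPINA3 encodes alpha-1-antichymotrypsin, an inhibitor of cathepsin G and chymase, and LCN2 encodes lipocalin 2, which binds bacterial siderophores and is also a product of neutrophil granules.

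UMUC3, an established human bladder carcinoma line, was placed in the bladders of C57 nude mice and kept there for 14 days. One group of 3 libraries came from UMUC3 with GANAB knockdown and the other group of 3 from control UMUC3. GANAB encodes the catalytic subunit of glucosidase II, which trims glucose from new N-glycans in the endoplasmic reticulum. The labels do not state the knockdown method, the number of clones or the age of the mice. Nude mice lack T cells but still have neutrophils and macrophages. No label ties a library to an animal, so p-values here reflect the spread among these 6 samples alone, and that spread may be technical.

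GANAB was at 231, 238 and 231 CPM in the knockdown libraries, against 685, 825 and 661 CPM in the control libraries (CPM, read counts relative to TMM-scaled library totals). The fall of GANAB passed the test, with a log2 fold change of -1.63 (SE 0.141, edgeR adjusted p = 0.00239). Total counts ranged from 36619291 to 40039584 in the knockdown and from 11737837 to 36381218 in the control libraries. The knockdown libraries were far more alike, with a biological coefficient of variation of 10.7% against 52.3% among the controls. Control library 1 stood apart by its mitochondrial ribosomal RNA: MT-RNR2 took 1.78% to 2.02% of counts in the knockdown libraries, and 17.5%, 0.954% and 0.789% in control libraries 1, 2 and 3. Of 16 urothelial markers, KRT20 and UPK3A were listed at 0 and CDH1 stayed below 1 TPM in all 6 libraries, while the other 13 reached 1 TPM in at least 1 library. The 16 summed to 403 to 427 TPM in the knockdown and 179 to 475 TPM in the control libraries. Of the 16, 13 were tested and 1, UPK1A, rose, by 2.98 on the log2 scale (edgeR adjusted p = 0.0251). That is 7.69% of those tested, where 4.59% of all tested genes rose and 8.31% passed in either direction.

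SAA1 and SAA2 lie on opposite strands of chromosome 11 and are near copies of each other. The last 159 bases of the coding sequences of SAA1-201 and SAA2-201 (GENCODE 29, GRCh38) are shown because their likeness limits how reads can be assigned. Capitals mark the 10 bases of this stretch at which they differ.

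SAA1: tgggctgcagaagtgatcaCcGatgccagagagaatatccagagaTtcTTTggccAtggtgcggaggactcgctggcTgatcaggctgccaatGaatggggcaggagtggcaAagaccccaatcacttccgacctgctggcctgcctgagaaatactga

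SAA2: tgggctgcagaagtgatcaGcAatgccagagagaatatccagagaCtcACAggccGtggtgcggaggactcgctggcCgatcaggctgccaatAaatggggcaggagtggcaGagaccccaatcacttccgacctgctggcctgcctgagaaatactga

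The whole coding sequences are 369 bases long in both genes and 97.0% identical, with 11 differing bases and a longest shared run of 186 bases. The differences fall in 9 codons, and 8 of these change the amino acid. Over all annotated transcripts, 54.2% of the 852 distinct 31-base words of SAA1 also occur in other genes. In SAA2 53.2% occur, and in the read-through gene SAA2-SAA4 24.1%. Of the 2249 words of SAA2, 24.5% occur in other genes, 20.1% in SAA1 and 10.6% in SAA2-SAA4. Counts of SAA1 and SAA2 are therefore partly a split by estimate. SERPINA3 shares 30.4% of its 5135 words with AL049839.2, an overlapping gene on the same strand. SERPINA1 shares 0.268% of its 5222 words, all with SERPINA2, and LCN2 shares none of its 1648.

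The RefSeq promoter table (GRCh38.p14) held SERPINA1, SERPINA3 and LCN2, 3 of the 5 genes. It held 2 starts of SERPINA1. The 250 bases before the start are shown for SERPINA3, for SERPINA1 at its downstream start and for LCN2, since NF-kappaB and C/EBP factors are the textbook regulators of this group. Capitals mark every match to a motif that was searched.

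SERPINA3, chr14:94612141-94612390, plus strand: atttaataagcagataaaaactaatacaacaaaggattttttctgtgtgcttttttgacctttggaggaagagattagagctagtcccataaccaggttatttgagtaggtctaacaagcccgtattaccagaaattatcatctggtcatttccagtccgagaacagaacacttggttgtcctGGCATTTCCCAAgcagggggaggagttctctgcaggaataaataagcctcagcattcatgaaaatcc

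SERPINA1, chr14:94388603-94388852, minus strand: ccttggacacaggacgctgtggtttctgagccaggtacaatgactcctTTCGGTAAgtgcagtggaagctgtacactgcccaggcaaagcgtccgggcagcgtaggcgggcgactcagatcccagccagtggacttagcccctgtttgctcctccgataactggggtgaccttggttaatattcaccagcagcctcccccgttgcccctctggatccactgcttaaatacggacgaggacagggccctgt

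LCN2, chr9:128149203-128149452, plus strand: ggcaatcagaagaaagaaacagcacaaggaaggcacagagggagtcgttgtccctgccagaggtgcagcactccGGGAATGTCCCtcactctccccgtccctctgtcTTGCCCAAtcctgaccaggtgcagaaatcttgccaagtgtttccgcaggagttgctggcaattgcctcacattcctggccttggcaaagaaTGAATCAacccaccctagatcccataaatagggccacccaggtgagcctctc

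Both strands were searched for 6 motifs. The NF-kappaB motif was GGG and CC with any 5 bases between them, and the C/EBP motif was TTNNGNAA. The STAT motif was TTCNNNGAA and the AP-1 motif TGANTCA. The HIF motif was NACGTG and the TATA motif TATAAA. In SERPINA3 an NF-kappaB match, GGCATTTCCC, lay at -67 to -58 and overlapped a C/EBP match, TTTCCCAA, at -63 to -56. LCN2 had overlapping NF-kappaB matches at -176 to -167 and -175 to -166, a C/EBP match at -143 to -136 and an AP-1 match at -52 to -46. SERPINA1 had a C/EBP match, TTCGGTAA, at -202 to -195, and no match before its upstream start. Of all 35116 promoter windows of the same length, 54.4% held the NF-kappaB motif, 33.2% the C/EBP motif and 6.57% the AP-1 motif, so the matches are a description of the letters. The STAT motif was in 6.57% of the windows, the HIF motif in 18.5% and the TATA motif in 10.7%; none of these 3 was in the windows of SERPINA1, SERPINA3 or LCN2.

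All 4 counted acute phase genes were lower in the knockdown libraries, and the knockdown and control values of each did not overlap. Below-control values in all 3 knockdown libraries were also found for 15.7% of the 19430 genes tested, and 37.6% did not overlap in either direction. Because the contrast chose the genes, nothing is read from these shares. Over all genes tested, 8.31% passed an adjusted p of 0.05 under edgeR's quasi-likelihood test, and 3.72% did so in the lower direction. In bulk RNA, fewer cells that express a gene and less RNA per cell cannot be told apart.

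SAA1 (ENSG00000173432, chromosome 11, 18266174 to 18269977, plus strand, GRCh38) had 0.273, 0.357 and 0.259 CPM in the knockdown libraries, against 12.7, 42.8 and 5.27 CPM in the control libraries. These values came from 11, 14 and 11 counts in the knockdown and 345, 815 and 64 counts in the control libraries. The lowest control library was 14.8 times the highest knockdown library. The fitted difference was -6.08 on the log2 scale (SE 0.851), 67.8-fold lower in the knockdown. It rested in part on control library 2, without which it was 30.2-fold.

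SAA2 (ENSG00000134339, chromosome 11, 18239223 to 18248643, minus strand), the paralog, had the fewest counts of the 4 in every library. It had 0.0496, 0.0255 and 0.188 CPM in the knockdown libraries, against 1.80, 4.57 and 0.576 CPM in the control libraries, from 2, 1 and 8 counts against 49, 87 and 7 counts. The raw counts overlapped and the CPM values did not, since control library 3 was the shallowest. The fitted difference was -4.65 on the log2 scale (SE 1.04), 25.1-fold lower in the knockdown, with 13.1-fold without control library 2 and 55.3-fold without knockdown library 3.

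Summing both genes removes the split between them, but not that with SAA2-SAA4. The sum was 0.323, 0.382 and 0.448 CPM in the knockdown libraries, against 14.5, 47.4 and 5.84 CPM in the control libraries. It was 58.3-fold lower in the knockdown, a difference of -5.86 on the log2 scale (SE 0.830). The knockdown libraries lay closer together for the sum than for SAA2 alone, with the highest 7.40 times the lowest for SAA2. They were also close for SAA1 alone, at 1.38 times, and SAA1 gave 36 of the 47 joint knockdown counts.

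SAA2 made up 23.4% of the joint counts in the knockdown libraries (11 of 47, 95% exact Clopper-Pearson interval 12.3% to 38.0%) and 10.5% in the control libraries (143 of 1367, 8.89% to 12.2%). Knockdown library 3 set the difference, with 8 of 19 counts or 42.1% (20.3% to 66.5%). Knockdown libraries 1 and 2 had 15.4% (1.92% to 45.4%) and 6.67% (0.169% to 31.9%), from 13 and 15 counts. The control libraries had 12.4% (9.34% to 16.1%), 9.65% (7.80% to 11.8%) and 9.86% (4.06% to 19.3%). The intervals cover counting error only, and not the uncertainty of the split between near-identical genes.

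**Figure D1:**
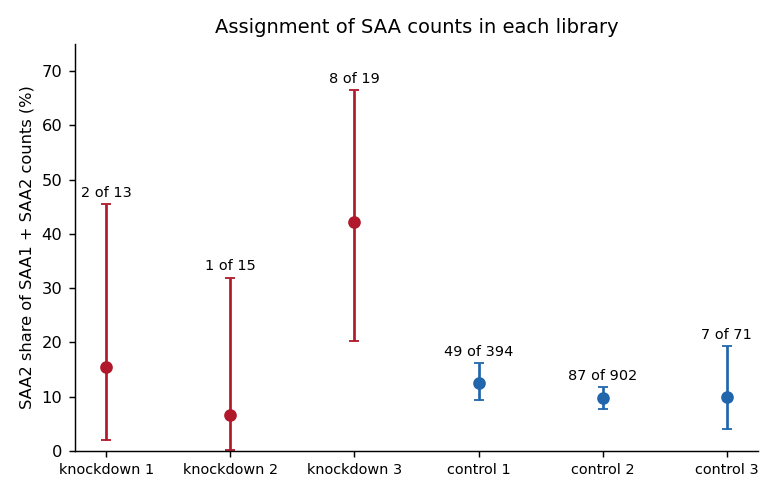
Share of SAA2 in the joint SAA1 and SAA2 counts in each library (%), with 95% exact binomial intervals of counting error, knockdown libraries left of control libraries. The control libraries sit between 9.65% and 12.4%, and knockdown library 3 is at 42.1%.

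SERPINA3 (ENSG00000196136, chromosome 14, 94612377 to 94624055, plus strand) had 0.347, 0.866 and 0.565 CPM in the knockdown libraries, against 19.8, 23.97 and 2.80 CPM in the control libraries. Control libraries 1 and 2 stood well above control library 3, which was still 3.23 times the highest knockdown library. The raw counts of the 34-count libraries, knockdown library 2 and control library 3, were equal, so the gap between them came from depth scaling. The fitted difference was -4.71 on the log2 scale (SE 0.811), 26.1-fold lower in the knockdown. Its overlapping gene AL049839.2 stayed at or below 0.0161 TPM in all 6 libraries.

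SERPINA1 (ENSG00000197249, chromosome 14, 94376747 to 94390693, minus strand), the other protease inhibitor, differed least. It had 2.70, 1.96 and 2.05 CPM in the knockdown libraries, against 5.33, 14.7 and 3.54 CPM in the control libraries. The lowest control library was 1.31 times the highest knockdown library, and the raw counts of 109, 77 and 87 in the knockdown libraries overlapped the 145, 280 and 43 in the control libraries. The fitted difference was -1.81 on the log2 scale (SE 0.541), 3.52-fold lower in the knockdown and 1.99-fold lower without control library 2.

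LCN2 (ENSG00000148346, chromosome 9, 128149071 to 128153455, plus strand) was above 0 TPM only in knockdown libraries 1 and 3, at the edge of detection. It was listed at 0.980, 0 and 0.226 TPM in the knockdown libraries and at 0 in all 3 control libraries, so the groups overlapped at 0. Control libraries 2 and 3 were shallower than any knockdown library, with total counts of 17942832 and 11737837, which limits what their 0 values show. No fold change is given, since the control libraries are listed at 0 and the count table had no row for the gene.

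**Figure D2:**
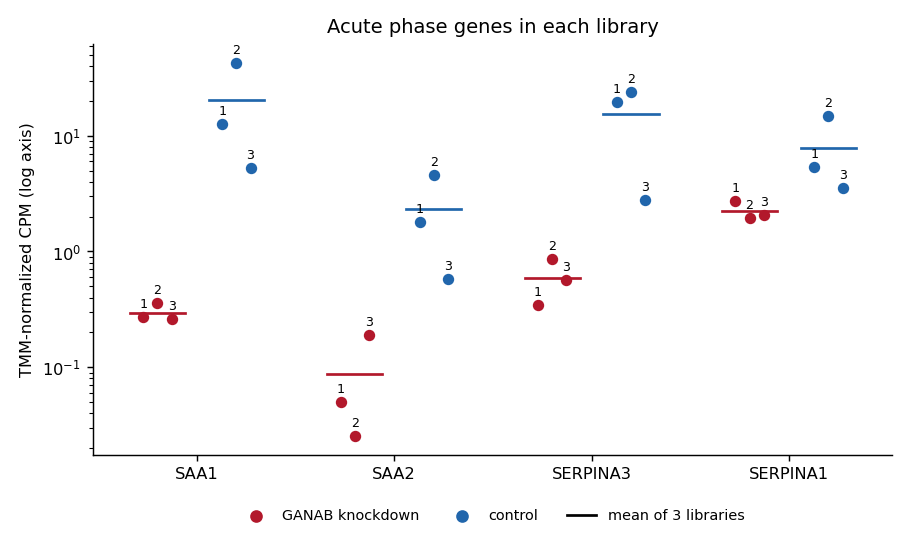
TMM-normalized CPM of SAA1, SAA2, SERPINA3 and SERPINA1 on a log axis, a point for each numbered library, knockdown left of control, with a line at the mean of 3 libraries. For each gene the 3 knockdown libraries sit below the 3 control libraries, with the narrowest gap for SERPINA1, and control library 2 is the highest.

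Per length, the order of the 4 counted genes differed between the groups. In the knockdown libraries SERPINA1 was the most abundant in each library at 2.05 ± 0.654 TPM (SD, n = 3), followed by SAA1 at 1.04 ± 0.226 TPM, SERPINA3 at 0.535 ± 0.231 TPM and SAA2 at 0.142 ± 0.137 TPM. In the control libraries SAA1 was the most abundant in each library at 66.9 ± 75.3 TPM, followed by SERPINA3 at 12.5 ± 10.5 TPM, SERPINA1 at 6.42 ± 5.58 TPM and SAA2 at 6.07 ± 6.38 TPM. Within the control libraries SERPINA3 was above SAA2 in each of the 3. SERPINA1 was below SERPINA3 in control libraries 1 and 2 and above it in control library 3. Against SAA2, SERPINA1 was lower only in control library 2. In the knockdown libraries SAA1 was above SERPINA3 in each of the 3 libraries. LCN2, at 0.980, 0 and 0.226 TPM there, was above SAA1 in knockdown library 1 and at 0 in library 2.

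The control libraries disagreed in a like way for each gene. Control library 2 was the highest and control library 3 the lowest for all 4. The highest control library was 8.13 times the lowest for SAA1, 7.94 times for SAA2, 8.57 times for SERPINA3 and 4.16 times for SERPINA1, against a median of 1.80 over the 16872 tested genes with counts in all 3 control libraries. Between 74.0% and 82.1% of all 19430 tested genes had a narrower ratio among the controls than these 4. Among the knockdown libraries the ratio was 1.38 for SAA1 and for SERPINA1, 2.49 for SERPINA3 and 7.40 for SAA2, against a median of 1.18 over the 19253 tested genes with counts in all 3 knockdown libraries.

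Over the 6 libraries the 4 genes followed each other, with Pearson r of log2(CPM + 1) between 0.889 for SERPINA1 with SERPINA3 and 0.977 for SAA2 with SERPINA1. These points fall into the knockdown and control groups and share their libraries, so r is a description. By the same measure over 6 libraries, the protein-coding genes closest to SAA1 were PSMD1, LDHA and TBC1D1 (r of 0.999, 0.998 and 0.998), and those closest to SAA2 were MCM10, MFGE8 and TBRG4 (0.998, 0.997 and 0.997). Closest to SERPINA1 were SLC35C2, IDH2 and VASP (0.999, 0.998 and 0.996), and closest to SERPINA3 were PLCB3, ZNF670 and CHCHD1 (0.999, 0.997 and 0.996). Their fitted levels were 1.19-fold (VASP) to 6.47-fold (LDHA) lower in the knockdown. These differences were smaller than those of SAA1, SAA2 and SERPINA3, while that of LDHA exceeded the 3.52-fold of SERPINA1.

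Of 21 other acute phase proteins of plasma 7 were tested, 2 rose, 0 fell and 5 did not pass, with a median log2 difference of 0.39 against 0.03 over all tested genes. In all, 4.59% of tested genes rose and 3.72% fell. CFB, a protease component of the alternative complement pathway, was at 5.36 ± 0.136 CPM in the knockdown and 0.735 ± 0.536 CPM in the control libraries (SD, n = 3 each), and rose, with a log2 fold change of 2.92 (SE 0.557, edgeR adjusted p = 0.0244). It overlaps C2 on the same strand. HPX, which encodes the haem carrier hemopexin, had 46, 13 and 25 counts in the knockdown libraries and 1, 0 and 0 counts in the control libraries (edgeR adjusted p = 0.0419). C3, the most abundant of the list, differed by 0.39 on the log2 scale and did not pass, and neither did LRG1 and HP, the 2 of the 7 with a difference below 0, at -1.22 and -0.86.

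CRP, APCS, SAA4, FGG, FGL1, ORM2, A2M and AGT were listed at 0 TPM in all 6 libraries. SAA2-SAA4 was listed at 0 in the knockdown libraries and at 0.532, 0.412 and 0 TPM in the control libraries, and the pseudogene SAA3P at 0 except for 0.124 TPM in control library 1. Of 7 negative acute phase proteins, which fall in plasma during inflammation, only TF was tested, and it differed by 0.39 without passing. Of 14 secreted proteins of local inflammation 7 were tested, 0 passed in edgeR and 1 in DESeq2, and 2 had an unadjusted p under 0.05. The smallest p there was that of TIMP1, an inhibitor of matrix metalloproteinases, with a log2 difference of -0.41 (edgeR adjusted p = 0.0911).

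Of 14 cytokines that induce the response 5 were tested, 0 passed in edgeR and 1 in DESeq2, and 1 had an unadjusted p under 0.05. IL6, the main inducer in liver, was listed at 0 TPM in all 6 libraries, as were IL17A, IL22 and IL36G. LIF, another IL-6 family cytokine, differed by 0.66 on the log2 scale and did not pass (edgeR adjusted p = 0.347).

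All 15 listed receptors were tested, 1 rose and 1 fell. OSMR, the receptor subunit for oncostatin M, was at 67.1, 68.3 and 69.03 CPM in the knockdown libraries, against 175, 156 and 179 CPM in the control libraries, 2.49-fold lower in the knockdown. It fell, with a log2 fold change of -1.32 (SE 0.124, edgeR adjusted p = 0.00318). The groups did not overlap, and the control libraries lay close together. OSMR overlaps RICTOR on the opposite strand, and the labels do not state whether counting used strand. TNFRSF1B, a TNF receptor, was at 8.52 ± 0.944 CPM in the knockdown and 1.27 ± 0.713 CPM in the control libraries (SD, n = 3 each), and rose, with a log2 fold change of 2.70 (SE 0.458, edgeR adjusted p = 0.0170).

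Of 28 signal transducers and transcription factors 25 were tested, 3 rose and 0 fell, with a median log2 difference of 0.22. SOCS3, the feedback inhibitor of IL-6 family signalling, was at 141, 137 and 142 CPM in the knockdown libraries, against 27.9, 35.2 and 14.7 CPM in the control libraries. It rose 5.39-fold, a log2 fold change of 2.43 (SE 0.298, edgeR adjusted p = 0.00698). STAT3, the transcription factor downstream of IL-6 family receptors, was at 311 ± 7.41 CPM in the knockdown and 193 ± 23.9 CPM in the control libraries (SD, n = 3 each), and rose by 0.69 (SE 0.139, edgeR adjusted p = 0.0281). FOXA1, a forkhead factor of liver and urothelium that overlaps TTC6, was at 7.89 ± 0.0830 CPM in the knockdown and 3.39 ± 0.417 CPM in the control libraries and rose by 1.22 (SE 0.247, edgeR adjusted p = 0.0281). HNF4A and FOXA2, liver-enriched factors, stayed below 1 TPM in every library.

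Of 16 receptors, target proteases and carriers of the 5 proteins 9 were tested, 1 rose and 1 fell. LRP1, the endocytic receptor that clears serpin-protease complexes and a gene that overlaps STAT6 on the opposite strand, was at 373 ± 12.1 CPM in the knockdown and 195 ± 45.1 CPM in the control libraries (SD, n = 3 each), and rose, with a log2 fold change of 0.94 (SE 0.191, edgeR adjusted p = 0.0287). LMAN1, a cargo receptor that carries alpha-1-antitrypsin out of the endoplasmic reticulum, was at 78.5 ± 1.48 CPM in the knockdown and 131 ± 24.8 CPM in the control libraries, and fell by 0.74 (SE 0.166, edgeR adjusted p = 0.0386). MCFD2, the partner of LMAN1, differed by -0.02 and did not pass. Of the target proteases, CTSG and CMA1 were listed at 0 TPM throughout. ELANE, neutrophil elastase, was at 0.124, 0.484 and 0.401 CPM in the knockdown libraries, against 2.10, 4.05 and 0.329 CPM in the control libraries, with a log2 difference of -2.68 that did not pass (edgeR adjusted p = 0.119). The groups overlapped, and control library 2 was the highest and control library 3 the lowest control, as for the acute phase genes. The summed TPM of neutrophil markers, which include ELANE, and that of endothelial markers had this order of controls too. The sums of macrophage, hepatocyte, fibroblast, smooth muscle and urothelial markers did not. PRTN3, a related protease of neutrophil granules, was at 0.174, 0.255 and 0.283 CPM in the knockdown libraries, against 0.441, 2.89 and 0 CPM in the control libraries, and did not pass.

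Of 33 other serpins 14 were tested, 0 rose and 2 fell, with a median log2 difference of -0.42, which is the same with SERPINB7 at its bound. SERPINB8 was at 7.74 ± 0.838 CPM in the knockdown and 17.9 ± 3.89 CPM in the control libraries (SD, n = 3 each), and fell, with a log2 fold change of -1.21 (SE 0.228, edgeR adjusted p = 0.0233). SERPINB7 had 0 counts in each knockdown library and 23, 7 and 29 counts in the control libraries (edgeR adjusted p = 0.0352), at least 15.7-fold lower against a floor of 3 counts per knockdown library. Of 18 other lipocalins 4 were tested, 0 passed in edgeR and 1 in DESeq2, and 1 had an unadjusted p under 0.05. C8G, the most abundant of them, differed by 0.85 on the log2 scale.

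Over the 9 lists 86 of 161 genes were tested, 7 rose and 4 fell, 12.8% of those tested against 8.31% of all genes. The number of calls changed with the libraries used. Without knockdown library 1, 2 or 3 there were 0, 2 and 1 list calls, and without control library 2 there were 32. Calls over all tested genes moved the same way, from 1614 to 62, 115 and 88 without a knockdown library and to 5604 without control library 2. On log2(TPM + 1), limma-trend called 7 higher and 0 lower, and on log2(TPM + 0.1) 3 higher and 0 lower. These were not the 7 genes that rose in edgeR. Of those, SOCS3, FOXA1 and TNFRSF1B were called on log2(TPM + 1), and SOCS3 and FOXA1 on log2(TPM + 0.1). The rises of CFB, STAT3 and LRP1 and the falls of OSMR, LMAN1 and SERPINB8 were called on neither scale. HPX and SERPINB7 were below the TPM filter. With each library left out in turn, SOCS3 passed in 4 of 6 fits and OSMR in 5 of 6. Each of the other 9 genes missed the threshold whenever a knockdown library was left out.

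**Figure D3:**
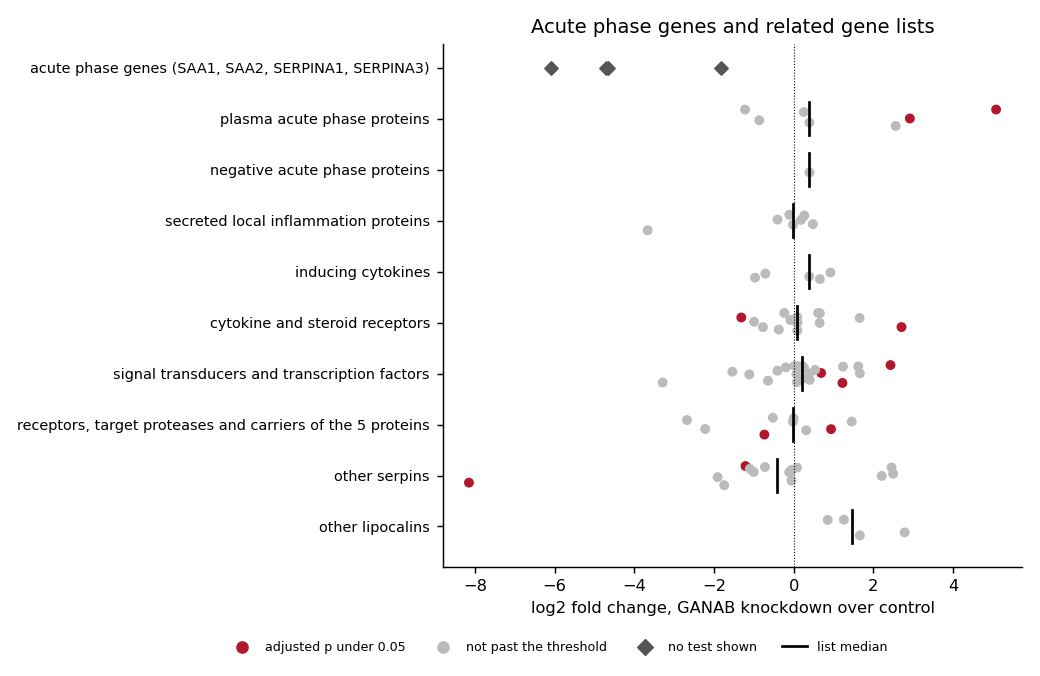
Log2 fold change, knockdown over control, of each tested gene in the lists around the acute phase response, with the genes that passed the threshold marked and the median of each list. SOCS3, TNFRSF1B, CFB and HPX lie to the right of 0, and OSMR, SERPINB8 and SERPINB7, whose fitted value is no bound because its knockdown counts are 0, lie to the left.

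The genes that flank the acute phase genes were compared to see how local the differences were. Within 250 kb lay 42 other protein-coding genes, of which 31 were tested, 0 rose and 3 fell. Over all tested genes 4.59% rose and 3.72% fell. All 3 flank SAA1 and SAA2: SAAL1, named for its likeness to SAA1, had a log2 difference of -0.96 (edgeR adjusted p = 0.0286), GTF2H1, a subunit of the transcription factor TFIIH, -0.89 (edgeR adjusted p = 0.0278) and LDHA, a lactate dehydrogenase subunit with processed pseudogenes, -2.69 (edgeR adjusted p = 0.0158). LDHA averaged 229 CPM in the knockdown and 1485 CPM in the control libraries, 6.47-fold lower, with a log2 difference of -2.002 without control library 2. Each of the 3 missed the threshold whenever a knockdown library was left out, when calls over all tested genes fell from 1614 to between 62 and 115. All 8 tested neighbours of SAA1 and SAA2 had differences below 0, where the median over all tested genes was 0.03. Whether the region differed as a whole was not tested. The 5 that did not pass were TPH1 at -1.81 (edgeR adjusted p = 0.0566), TSG101 at -0.80 (edgeR adjusted p = 0.0532), HPS5 at -0.78, MRGPRX3 at -0.37 and SERGEF at -0.27.

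Around SERPINA1 and SERPINA3, the 5 tested neighbours PPP4R4, SERPINA10, SERPINA5, IFI27L2 and GSC had log2 differences between -1.10 (SERPINA5) and 0.08 (IFI27L2), and 0 passed in edgeR. SERPINA4, SERPINA9, SERPINA11 and SERPINA12, which lie between or beside the 2 expressed serpins, were listed at 0 TPM in all 6 libraries. Around LCN2 all 18 neighbours were tested and 0 passed in edgeR, with differences between -1.23 for AL157935.2 and 1.29 for DNM1.

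**Figure D4:**
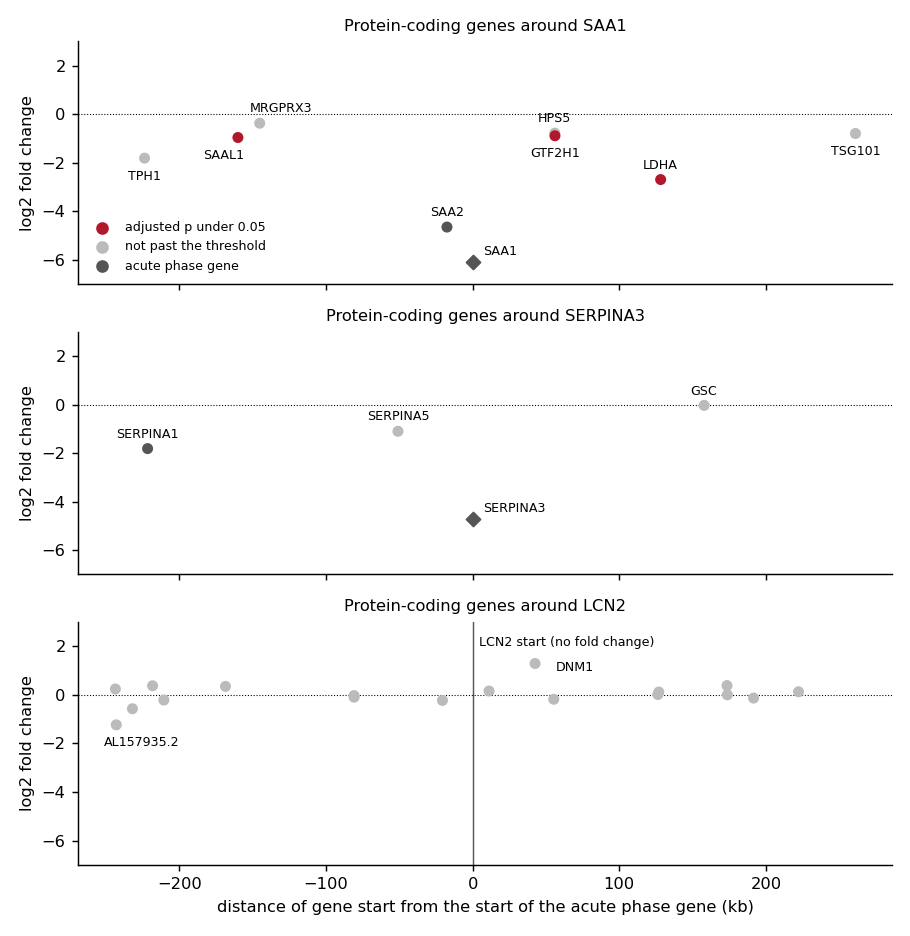
Log2 fold change, knockdown over control, of tested protein-coding genes against the distance (kb) of their start from that of SAA1, SERPINA3 or LCN2. SAA1 at -6.08 and SAA2 at -4.65 lie below all their neighbours, and LDHA at -2.69 is the lowest of the flanking genes.

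Neutrophils, macrophages and liver cells are other known sources of these proteins, and mouse reads that match human transcripts may be counted. Of 10 neutrophil markers, MPO, LTF, CAMP and MMP8 were listed at 0 in all 6 libraries. ELANE, S100A8 and S100A9 reached 1 TPM in at least 1 library, and ELANE was the 1 marker tested. The summed level of the 10 was 1.02 to 2.37 TPM in the knockdown and 0.814 to 6.69 TPM in the control libraries. Of 10 hepatocyte markers, AHSG, APOB and TTR were listed at 0 in all 6 libraries, and the sum was 0.645 to 2.15 TPM in the knockdown and 0 to 1.14 TPM in the control libraries. Of 10 macrophage markers 6 stayed below 1 TPM in every library. Their sum, mostly CD68, was 56.3 to 59.6 TPM in the knockdown and 58.6 to 227 TPM in the control libraries, highest in control library 2 as for the SAA genes. Control library 2 was also the highest control for the neutrophil markers, at 2.98, 6.69 and 0.814 TPM in control libraries 1, 2 and 3. The same held for the sums of the urothelial and endothelial markers and of the other serpins and lipocalins, with control library 2 the highest control. It was not the highest for the hepatocyte, smooth muscle or fibroblast markers.

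Smooth muscle markers summed to 876 to 943 TPM in the knockdown and 210 to 395 TPM in the control libraries. Under edgeR 4 of 8 rose, where 4.59% of all tested genes rose. Fibroblast markers summed to 59.6 to 75.4 TPM in the knockdown and 9.02 to 45.2 TPM in the control libraries, and 1 of 6 tested rose. Endothelial markers summed to 8.97 to 12.2 TPM in the knockdown and 7.71 to 45.9 TPM in the control libraries, and 0 of 6 tested passed. Several of these genes are also expressed by mesenchymal tumour lines. The part of host cells in the differences of the acute phase genes was not tested.

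**Figure D5:**
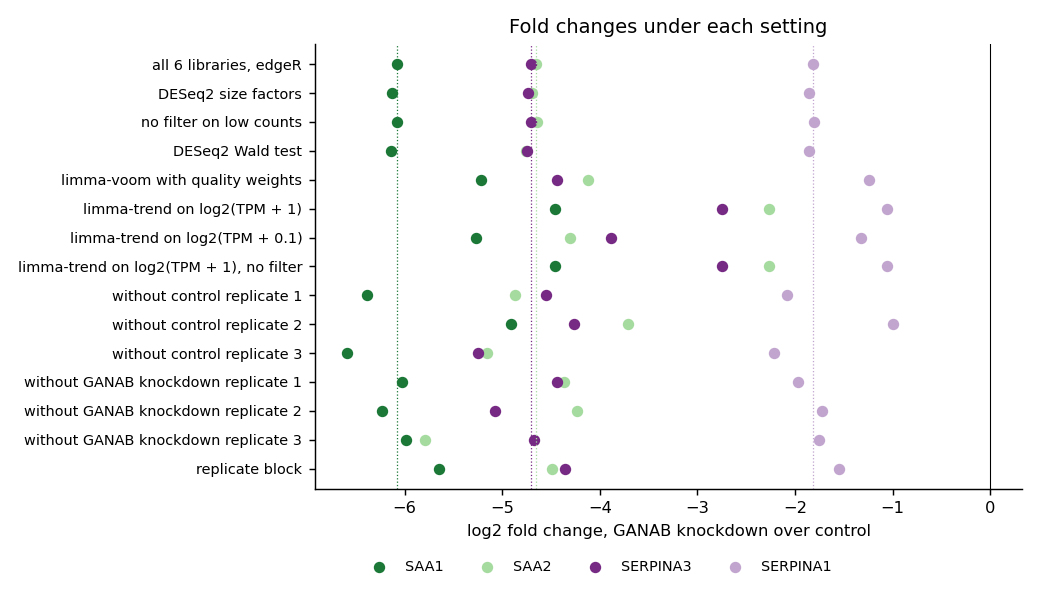
Log2 fold change, knockdown over control, of SAA1, SAA2, SERPINA1 and SERPINA3 under each processing alternative, with dotted lines at the values of all 6 libraries in edgeR. Every value lies below 0, and the values on the log2(TPM + 1) scale are closest to 0 for SAA1, SAA2 and SERPINA3.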

How the data were processed

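Total RNA of 6 libraries, 200 ng each, was sequenced in bulk. The authors deposited estimated counts per Ensembl gene, whole as deposited and not normalized, and TPM values. The tools named by the submitters' processing notes are fastp, Salmon and DESeq2, with the build GRCh38. Versions, the strand setting and any removal of mouse reads are not stated there. Salmon splits shared reads by estimate. The table headers abbreviate the treated group as a knockout, where the labels have knockdown.

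The main test was edgeR's 2-sided quasi-likelihood test (edgeR 4.0.16 under R 4.3.3) with TMM scaling, filterByExpr (2073 genes removed, 19430 tested), no covariate and Benjamini-Hochberg adjustment at 0.05. Standard errors came from the fold change and F statistic. A single count weighed 0.0236 to 0.0255 CPM in the knockdown and 0.0368 to 0.0823 CPM in the control libraries. Replicates within a group differed beyond sampling noise by chi-square.

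Named genes were the 5 acute phase genes, GANAB, up to 3 called genes and the most abundant gene of each list, coding neighbours within 250 kb and the 3 genes most like each. UPK1A, ELANE, IL6 and other genes singled out outside this rule were chosen after their values were seen. A list gene that this rule names is not reported here. The acute phase genes and the lists were chosen with earlier results of these data known. Annotation was GENCODE 29. Alternatives were DESeq2 size factors, no filter, DESeq2 1.42.0, limma 3.58.1 voom with quality weights, limma-trend on TPM, leaving out each library, a replicate block and the summed SAA genes.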

Additional observations from a re-analysis of the deposited data

Results flagged for a closer look

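LCN2 was above 0 in data outside the count comparison: the TPM table lists it at 0.980 TPM in knockdown library 1 and 0.226 TPM in knockdown library 3, against 0 in knockdown library 2 and in all 3 control libraries. The count table, which holds genes with counts in at least 3 libraries, has no row for it, and the TPM values carry no depth, so no interval or test is given.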

How the results depend on the processing

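The 4 counted acute phase genes were lower in the knockdown under every alternative. That makes 58 values, 1 for each gene and setting, with the fit of the summed SAA genes entered for both SAA1 and SAA2. Of these, 52 lay within 1 SD of the control libraries from the main value. That SD is wide, from 1.06 for SERPINA1 to 1.71 for SERPINA3 on the log2 scale. It takes in the 30.2-fold of SAA1 and the 1.99-fold of SERPINA1 without control library 2. The 6 others were those on the log2(TPM + 1) scale, with and without the filter, at -4.46 for SAA1, -2.26 for SAA2 and -2.75 for SERPINA3; the added 1 is near or above their knockdown levels. Leaving out a library gave -6.59 to -4.92 for SAA1, -5.79 to -3.72 for SAA2, -2.21 to -0.99 for SERPINA1 and -5.25 to -4.26 for SERPINA3. GANAB stayed lower throughout but did not pass at -1.26 on log2(TPM + 0.1) (limma adjusted p = 0.0553) or -1.25 on log2(TPM + 1) without a filter (limma adjusted p = 0.0877). The 1614 genes called became 3676 by DESeq2, 3716 by limma-voom, 828 on log2(TPM + 1), 526 on log2(TPM + 0.1), 46 on log2(TPM + 1) without a filter and 566 with the replicate block, and 62 to 5604 when a library was left out. The 11 list calls became 26, 22, 7, 3, 0 and 4 under the same settings in turn, and 0 to 32 when a library was left out; where limma-trend called 0, 35 had an unadjusted p under 0.05, and where edgeR without knockdown library 1 called 0, 20 did. On log2(TPM + 1), 90.7% of calls were higher in the knockdown against 55.3% in the main fit, and the median of all genes was 0.23. No clear pairing by replicate number was seen, and pairing was not tested. Correlations of deviations were 0.0022, 0.0171 and 0.0218, although 3 of 3 knockdown libraries matched best the control library of their own number. Some genes that did not pass changed sign: MCFD2 was 0.0023 by limma-voom, 0.15 on log2(TPM + 1) with and without the filter, 0.16 on log2(TPM + 0.1) and -0.10 to 0.022 when a library was left out; TNFRSF1A was -0.63 to 0.087 when a library was left out. Both turned positive without control library 2. The cause was not tested. Depth limits SAA2, with 1 to 8 counts in a knockdown library.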
